A study of Oryctolagus cuniculus with 27 samples.

Results

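The 10 genes followed here belong to bone morphogenetic protein (BMP) signalling and were measured in rabbits, in cusps of the aortic valve, in the ascending aorta and in myocardium of the left ventricle. They were the ligands BMP2, BMP3, BMP4 and BMP6, the secreted antagonists GREM1 and NOG, the transcriptional targets ID1, ID2 and ID3, and the inhibitory Smad SMAD6. They were looked up by symbol among the 31346 genes of the full count tables, and all 10 were listed. Male New Zealand rabbits, labelled wild type, ate chow with 1% cholesterol and ergocalciferol (vitamin D2) at 3500 IU per kg and day, or normal chow. RNA of whole tissue pieces was sequenced, in the valve from 1 cusp per animal. Valve libraries came from rabbits on chow (control, n = 4) and after 2, 4 and 7 weeks of the diet (n = 4 each). Aorta had 2 diet and 3 control libraries, and myocardium 3 of each. The titles name 7 weeks for 3 control valves and 2 weeks for 1, while the design text speaks of controls pooled from 2 and 4 weeks, which leaves the duration for these controls unsettled. For aorta and myocardium the labels give no duration. By animal identifier all diet myocardium came from 7-week valve animals and 1 diet aorta from a 2-week valve animal.

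BMPs are secreted dimers of the TGF-beta family that bind receptor kinases on the cell surface and lead to phosphorylation of SMAD1, SMAD5 and SMAD9, which enter the nucleus with SMAD4. ID1, ID2 and ID3 are among the most direct targets of this route, and SMAD6 is a target that feeds back to block it. Gremlin 1 (GREM1) and noggin (NOG) bind the ligands outside the cell and keep them from the receptors. BMP2 and BMP4 induce bone, and BMP signalling has been studied in calcification of arteries and of the aortic valve. BMP3 differs from the other ligands in that it opposes bone formation in mice.

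Library totals ran from 8458433 to 19998949 counts in valve, 11509598 to 16107404 in aorta and 13954419 to 17322360 in myocardium. Levels are given as counts-per-million values of the library total (CPM), a scale that is not corrected for gene length, so levels are compared between samples and not between genes. All 12 valve interstitial and fibroblast markers on the list used were found, led by VIM and COL3A1, and every valve library also held smooth muscle, heart muscle, endothelial and macrophage transcripts. The smooth muscle list (10 of 10 genes in the tables, led by ACTA2 and MYH11, 0 of them absent from any valve library) is used below because it moved with the diet. Its summed level lay at 20871 to 37643 CPM in control valves, 30444 to 46852 CPM at 2 weeks, 14650 to 29681 CPM at 4 weeks and 9119 to 15592 CPM at 7 weeks.

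**Figure D1:**
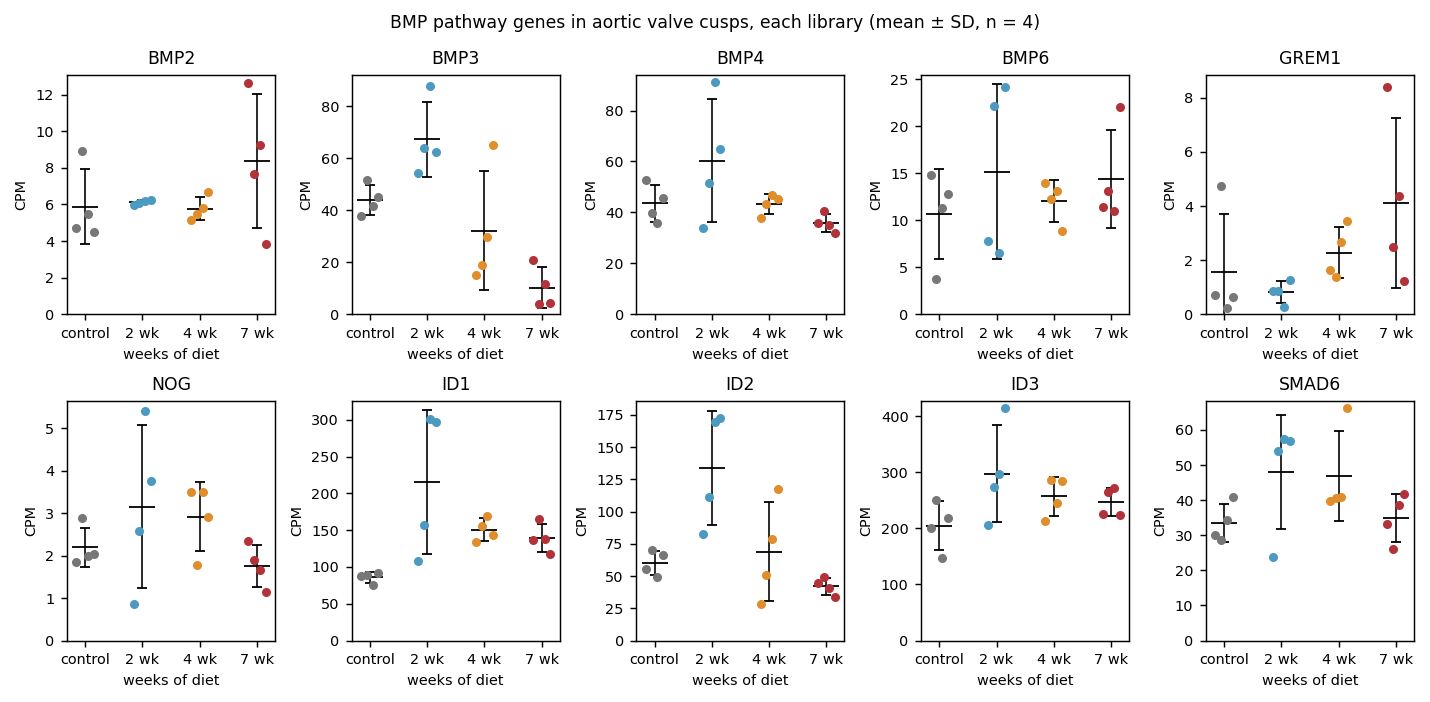
Level (CPM) of each of the 10 genes in the 16 valve libraries, in control valves and after 2, 4 and 7 weeks of diet. Each point is 1 library, and the bar with whiskers is the mean ± SD of 4. BMP3 was lower at 7 weeks than in every control valve, while ID1 was above every control valve at 2, 4 and 7 weeks.

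In valves the change that passed the test against chow was a fall of BMP3 at 7 weeks. A gene passed when the adjusted p of edgeR's quasi-likelihood test, over all genes tested, was under 0.05. After 7 weeks 1 of the 10 genes passed, where 7.79% of the 15973 genes tested passed in either direction, 5.2% higher and 2.6% lower. After 2 weeks 0 of 10 passed by edgeR (3 at an unadjusted p under 0.05), where 0.025% of all genes passed and 16.4% had an unadjusted p under 0.05. By DESeq2 2 of 10 passed, where 950 of all genes did. After 4 weeks 0 of 10 passed by edgeR (1 at an unadjusted p under 0.05, and 0 by DESeq2), where 2% of all genes passed and 12.8% had an unadjusted p under 0.05. Between durations, 4 of 10 passed at 7 against 2 weeks, where 26.7% of all genes did, 14.5% higher and 12.2% lower: BMP3, BMP4 and ID2 fell and GREM1 rose. At 4 against 2 weeks 0 of 10 passed by edgeR (4 at an unadjusted p under 0.05, and 1 by DESeq2), with 4.36% of all genes past the threshold and 19.7% at an unadjusted p under 0.05. At 7 against 4 weeks 0 of 10 passed by edgeR (2 at an unadjusted p under 0.05, and 1 by DESeq2), with 0.1% and 12% of all genes. The shares of all genes given here are by edgeR. DESeq2 called 765 of all genes at 4 weeks, 1490 at 4 against 2 weeks and 200 at 7 against 4 weeks. The comparisons with control share the same 4 control libraries, and those between durations share diet libraries, so their values are given side by side only. The 7-week libraries are numbered apart from the other valve libraries, so run and duration cannot be told apart. Replicates 1 to 3 of the 7-week group also carry animal identifiers of another form than the other animals. Groups did not overlap for 3 genes at 2 weeks against control (BMP3, ID1 and ID2, all higher), where 10% of all genes did not. They did not overlap for 1 gene at 4 weeks (ID1, 6.92% of all genes) and for 3 at 7 weeks (ID1 higher, BMP3 and ID2 lower, 11.3% of all genes). At 7 against 2 weeks they did not for 2 (BMP3 and ID2, 20.5% of all genes). Overlap was judged in CPM of the library total, and after TMM scaling ID2 at 7 weeks overlapped with controls.

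BMP3, the ligand that opposes bone formation in mice, fell to 10.2 ± 7.99 CPM at 7 weeks, against 43.9 ± 5.89 CPM in controls (SD, n = 4 each). The 7-week libraries held 21.01, 3.9, 11.5 and 4.42 CPM, and the control libraries 37.7, 51.6, 41.6 and 44.9 CPM. Every 7-week valve lay below every control valve. The log2 fold change was -2.19 ± 0.47 (SE of the fit, here and below), with an adjusted p of 0.014. At 2 weeks the libraries held 54.5, 64.1, 87.9 and 62.5 CPM, all above the controls, but the change of 0.61 ± 0.45 did not pass (adjusted p = 0.564). At 4 weeks the values spread from 14.97, 18.9 and 29.6 CPM in replicates 1 to 3 to 65.3 CPM in replicate 4, which alone lay above the controls. The change at 4 weeks was -0.59 ± 0.45 (adjusted p = 0.67). The difference of 7 over 2 weeks was -2.80 ± 0.48 (adjusted p = 0.0016), again with no overlap. At 4 over 2 weeks it was -1.20 ± 0.45 (adjusted p = 0.147), and it passed without 4-week replicate 4 (-1.86, adjusted p = 0.0123). At 7 over 4 weeks it was -1.60 ± 0.47 (adjusted p = 0.26), and it passed by DESeq2 (-1.62, adjusted p = 0.0402). Without any 1 of the 8 libraries in turn, the 7-week change against control stayed past the threshold, between -2.71 and -1.95.

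The smooth muscle list moved beside BMP3. At 7 weeks 7 of its 10 genes fell and 0 rose against control (median log2 fold change -1.24, against -0.01 for all genes tested), and at 7 over 2 weeks 9 fell and 1 rose. Within groups the library with the most BMP3 was also that with the highest smooth muscle sum at 4 weeks (replicate 4) and in controls (replicate 2). At 2 weeks replicate 1 had the highest sum and the least BMP3, while replicate 3 had the most BMP3. At 7 weeks replicate 3 had the highest sum and replicate 1 the most BMP3. In a fit that added the smooth muscle sum as a term, an alternative chosen once the values had been seen, BMP3 at 7 weeks stood at -0.96 ± 0.42 (adjusted p = 0.458) and at 7 over 2 weeks at -0.58 ± 0.60 (adjusted p = 0.999). In that edgeR fit 0 of all genes passed in either comparison (1653 and 676 at an unadjusted p under 0.05), and the smooth muscle sums of the 7-week valves overlap with neither the control nor the 2-week sums. In whole tissue, fewer cells of a type and less RNA per cell cannot be told apart. Macrophage transcripts also moved, with 10 of 11 listed genes higher and summed levels of 791 to 1126 CPM at 7 weeks against 161 to 294 CPM in controls, and their part in the result was not tested. The cardiomyocyte list had 0 of 19 genes past the threshold at 7 weeks by edgeR (2 at an unadjusted p under 0.05), and with its sum as a covariate BMP3 fell by 2.29 ± 0.46 and passed (adjusted p = 0.00958).

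**Figure D2:**
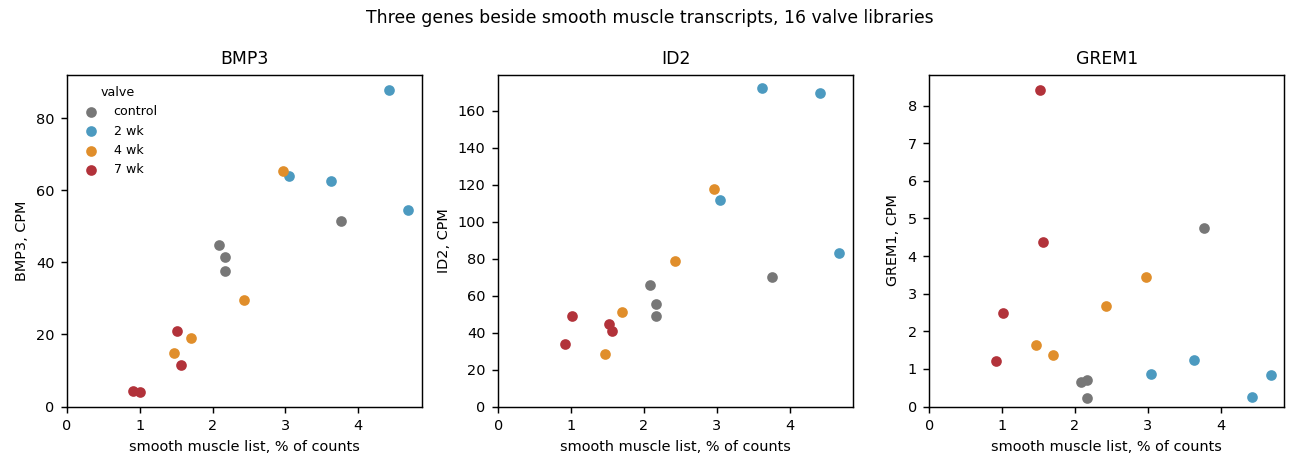
Level (CPM) of BMP3, ID2 and GREM1 against the summed share of 10 smooth muscle genes (percent of counts) in the 16 valve libraries, coloured by group. The 7-week valves (0.912 to 1.56% smooth muscle) sit at the low end for BMP3, and the 2-week valves (3.04 to 4.69%) at the high end.

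BMP4, a bone-inducing ligand, was at 35.9 ± 3.49 CPM at 7 weeks and 60.4 ± 24.1 CPM at 2 weeks. It fell at 7 over 2 weeks by 0.74 ± 0.25 on the log2 scale (adjusted p = 0.042). The 7-week libraries held 36.01, 40.4, 35.04 and 31.98 CPM and the 2-week libraries 33.97, 51.6, 91.2 and 64.7 CPM. The lowest 2-week library thus lay within the 7-week range. The call was lost without 2-week replicate 3 or 4 or 7-week replicate 1, 3 or 4, and without 2-week replicate 3, the highest, the difference was -0.39 ± 0.21 (adjusted p = 0.191). The call was also lost with the cardiomyocyte covariate (-0.88 ± 0.36, adjusted p = 0.198). With the smooth muscle covariate BMP4 stood at -0.84 ± 0.54 (adjusted p = 0.999), in a fit where 0 of all genes passed in this comparison. Against control BMP4 stood at 0.47 ± 0.25 at 2 weeks, -0.17 ± 0.25 at 4 weeks and -0.27 ± 0.25 at 7 weeks, and did not pass at any of them.

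BMP2, the other bone-inducing ligand, held 4.70, 8.89, 5.48 and 4.47 CPM in control valves. At 2 weeks its 4 libraries lay between 5.96 and 6.25 CPM, and at 4 weeks between 5.15 and 6.65 CPM. At 7 weeks they spread over 12.7, 7.68, 9.27 and 3.82 CPM, wider than the control range on both sides. The changes against control of 0.05 ± 0.28, -0.17 ± 0.28 and 0.48 ± 0.28 at 2, 4 and 7 weeks did not pass (adjusted p = 0.952, 0.875 and 0.29). BMP6, best known for the control of iron through hepcidin, ranged from 6.52 to 24.2 CPM over the diet valves and from 3.78 to 14.8 CPM in controls. Its 2-week libraries fell apart into 7.74 and 6.52 CPM in replicates 1 and 3 and 22.1 and 24.2 CPM in replicates 2 and 4. Its changes against control were 0.43 ± 0.44 at 2 weeks, -0.01 ± 0.44 at 4 weeks and 0.41 ± 0.44 at 7 weeks (adjusted p = 0.704, 0.998 and 0.58).

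GREM1, the secreted antagonist gremlin 1, was scarce in cusps, with 3 to 129 counts per valve library. It rose at 7 over 2 weeks by 2.29 ± 0.75 (adjusted p = 0.0343), to 4.12 ± 3.14 CPM at 7 weeks, against 0.806 ± 0.408 CPM at 2 weeks. The 7-week libraries held 8.42, 2.48, 4.37 and 1.21 CPM and the 2-week libraries 0.851, 0.863, 0.261 and 1.25 CPM. The highest 2-week library overlapped with the lowest 7-week library. This call rested on several libraries: it was lost without 2-week replicate 1, 2 or 3 or 7-week replicate 1, 2 or 3, and without 7-week replicate 1, the highest, the change was 1.79 ± 0.77 (adjusted p = 0.083). With the smooth muscle covariate the value was larger, 5.27 ± 0.99 (adjusted p = 0.551), in a fit where 0 of all genes passed in this comparison. Control valves held 0.712, 4.74, 0.222 and 0.65 CPM, and replicate 2 stood far above the other 3. Against all 4 controls the 7-week change was 1.35 ± 0.71 (adjusted p = 0.247), while without control replicate 2 it was 2.84 ± 0.65 and passed (adjusted p = 0.0374). At 4 weeks GREM1 was at 1.37 to 3.43 CPM, above every 2-week library, with a difference of 1.38 ± 0.74 over 2 weeks that did not pass (adjusted p = 0.328). Non-overlap in CPM between these durations was found for 10.7% of all genes. After TMM scaling GREM1 overlapped, with 1.22 CPM in 4-week replicate 2 and 1.23 CPM in 2-week replicate 4.

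NOG, the antagonist noggin, was also scarce, with 11 to 83 counts per valve library. Control valves held 1.85, 2.88, 2.00 and 2.03 CPM, and 2-week valves 0.851, 2.59, 5.41 and 3.75 CPM. The 4-week values were 3.50, 1.77, 3.50 and 2.91 CPM and the 7-week values 2.35, 1.89, 1.66 and 1.15 CPM. All groups overlapped, and the changes against control were 0.53 ± 0.43, 0.27 ± 0.43 and -0.33 ± 0.44 at 2, 4 and 7 weeks. At 7 over 2 weeks the difference was -0.86 ± 0.44 (adjusted p = 0.151). It passed without 2-week replicate 1, the lowest of its group (-1.17 ± 0.36, adjusted p = 0.0429).

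ID1, a helix-loop-helix protein that keeps other transcription factors off DNA, was higher in all 12 diet valves than in any control valve. Controls held 87.7, 89.5, 75.2 and 92.2 CPM. The 2-week libraries held 107.8, 156.7, 300.4 and 297.3 CPM, the 4-week libraries 133.7, 155.4, 169.7 and 143.1 CPM and the 7-week libraries 137.2, 165.4, 137.4 and 117.9 CPM. None of the 3 differences passed by edgeR. They were 1.31 ± 0.28 at 2 weeks (adjusted p = 0.0662), 0.64 ± 0.28 at 4 weeks (adjusted p = 0.335) and 0.71 ± 0.28 at 7 weeks (adjusted p = 0.125). Higher without overlap were 4.43% of all genes at 2 weeks, 6.29% at 4 weeks and 8.48% at 7 weeks. At 2 weeks ID1 ranked 69 by p among the 15973 genes, and it passed by DESeq2 (1.32 ± 0.29, adjusted p = 0.00112). By edgeR it passed without control replicate 2 or 2-week replicate 2 (adjusted p = 0.0445 and 0.0472), and without 2-week replicate 3 it stood at 1.02 ± 0.27 (adjusted p = 0.211). Immediate early transcripts, which respond within minutes to stimulation or handling, summed to 1182, 858, 2910 and 1286 CPM in the 2-week libraries, against 510, 969, 512 and 644 CPM in controls. Of that list 0 of 13 genes passed at 2 weeks by edgeR (8 at an unadjusted p under 0.05), with a median log2 fold change of 1.05, and their part in the ID1 level was not tested.

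ID2, of the same family, was at 82.9, 111.6, 169.8 and 172.4 CPM at 2 weeks, against 55.2, 69.9, 49.1 and 66.0 CPM in controls. The groups did not overlap, but the change of 1.15 ± 0.36 did not pass by edgeR (adjusted p = 0.114). It passed by DESeq2 (1.16 ± 0.36, adjusted p = 0.032). The 4-week libraries spread from 28.2 CPM in replicate 1 to 117.6 CPM in replicate 4, on both sides of the controls (0.04 ± 0.35, adjusted p = 0.981). At 7 weeks ID2 was at 44.9, 49.06, 40.8 and 33.6 CPM, each below the lowest control of 49.09 CPM. That separation depended on the scale. After TMM scaling, which the test uses, 7-week replicate 2 was at 62.6 CPM, above control replicates 1 (55.0) and 3 (53.8). The change of -0.50 ± 0.35 did not pass (adjusted p = 0.39). Lower without overlap at 7 weeks were 2.83% of all genes. At 4 over 2 weeks ID2 stood at -1.11 ± 0.35 (adjusted p = 0.0894), and it passed by DESeq2 (-1.12, adjusted p = 0.0307) and without 4-week replicate 4 (-1.54, adjusted p = 0.011). At 7 over 2 weeks ID2 fell by 1.65 ± 0.36 on the log2 scale (adjusted p = 0.00545), to 42.1 ± 6.58 CPM at 7 weeks, against 134.2 ± 44.2 CPM at 2 weeks. That call held without any 1 of the 8 libraries, from -1.87 to -1.45. It was lost with the cardiomyocyte covariate (-1.59 ± 0.53, adjusted p = 0.11). With the smooth muscle covariate ID2 stood at -0.51 ± 0.69 (adjusted p = 0.999), in a fit where 0 of all genes passed in this comparison. The cardiomyocyte list, with 14 of 19 genes higher and 0 lower at 7 over 2 weeks, summed to 12552 to 55579 CPM at 7 weeks and 4784 to 9780 CPM at 2 weeks.

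ID3, of the same family again, did not pass in any valve comparison. Its 2-week libraries held 206.2, 274.0, 296.6 and 414.4 CPM, against 200.9, 251.6, 146.9 and 218.4 CPM in controls. The changes against control were 0.53 ± 0.21 at 2 weeks, 0.18 ± 0.21 at 4 weeks and 0.29 ± 0.21 at 7 weeks, and the groups overlapped each time (adjusted p = 0.221, 0.817 and 0.408). SMAD6, which blocks BMP receptor signalling from inside the cell, was at 33.5 ± 5.45 CPM in controls, 48.0 ± 16.2 CPM at 2 weeks, 46.9 ± 12.9 CPM at 4 weeks and 34.9 ± 6.93 CPM at 7 weeks. Its changes of 0.48 ± 0.26, 0.32 ± 0.26 and 0.02 ± 0.26 did not pass (adjusted p = 0.392, 0.7 and 0.967). At 2 weeks replicate 1 held 23.8 CPM, below every control, while the other 3 held 53.9 to 57.5 CPM, above every control.

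Over the 16 valve libraries ID1 and ID3 ran closely together. Ranked by Spearman's rho with ID1 on the log2(CPM + 1) scale, ID3 came first of 15972 genes (rho = 0.82), followed by LOC127491093 (0.82) and ARG2 (0.80). The rank of ID2 was 1282 (rho = 0.42), that of SMAD6 302 (0.55), of BMP4 550 (0.51) and of NOG 581 (0.51). For GREM1 the genes most alike were ANKZF1 (0.86), LOC108177296 (0.85) and WDR91 (0.85), and among the genes studied here BMP2 came nearest (0.67, rank 362). These values describe libraries that share group, depth and tissue mixture, and are given without a test.

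**Figure D3:**
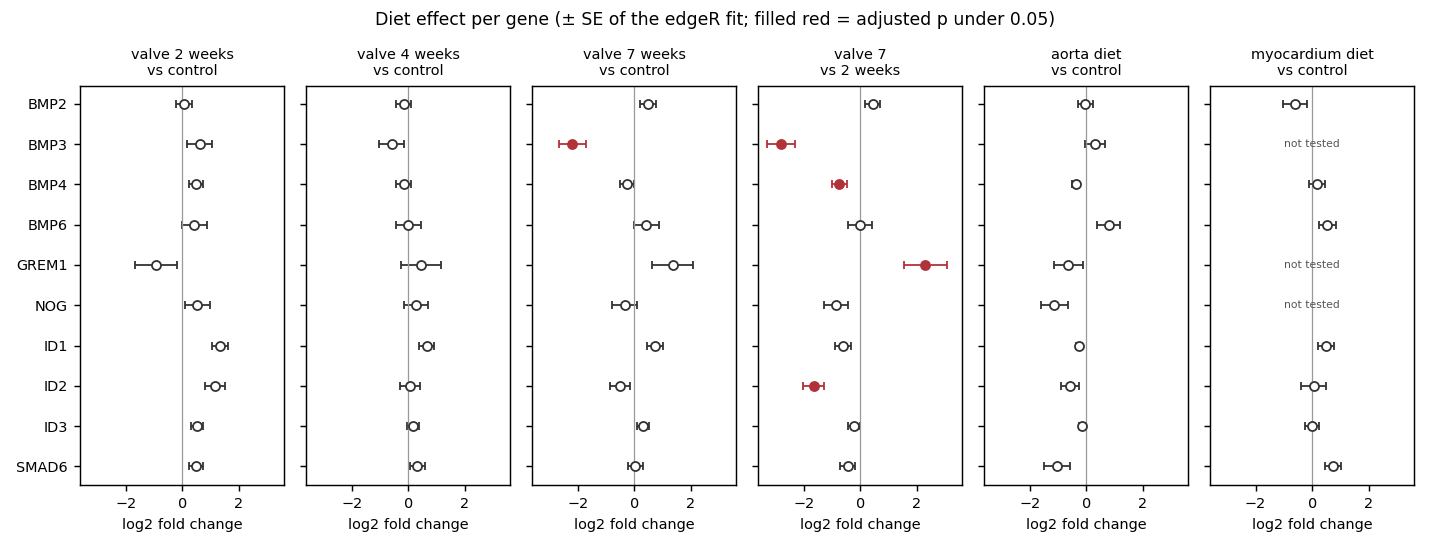
Log2 fold changes (± SE of the edgeR fit) of the 10 genes in 6 comparisons, filled red where the adjusted p was under 0.05. BMP3 fell at 7 weeks over control, BMP3, BMP4 and ID2 fell and GREM1 rose at 7 over 2 weeks, and no gene passed in aorta or myocardium.

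In the ascending aorta 0 of 10 genes passed by edgeR or by DESeq2 (2 at an unadjusted p under 0.05 by edgeR), where 0.159% of the 14435 genes tested passed and 12.2% had an unadjusted p under 0.05. ID1 held 149.6 and 151.1 CPM in diet aortas, against 192.6, 191.9 and 176.6 CPM in control aortas, a difference of -0.27 ± 0.10 (adjusted p = 0.389). BMP4 held 16.6 and 17.7 CPM on the diet, against 24.2, 22.1 and 23.02 CPM in controls (-0.38 ± 0.13, adjusted p = 0.332). NOG held 2.69 and 2.86 CPM on the diet, against 5.995, 3.35 and 9.56 CPM in controls (-1.14 ± 0.47, adjusted p = 0.416). Both diet aortas lay below all 3 controls for ID1, ID3, BMP4 and NOG and above them for BMP6, and such non-overlap in either direction was found for 33.7% of all genes with groups this small. SMAD6 held 24.4 and 31.6 CPM on the diet, against 59.7, 30.2 and 87.3 CPM in controls (-1.03 ± 0.45, adjusted p = 0.426). Of the others, BMP6 stood at 0.78 ± 0.39, ID3 at -0.16 ± 0.11, ID2 at -0.57 ± 0.32, GREM1 at -0.63 ± 0.52 and BMP2 at -0.04 ± 0.26, with adjusted p from 0.482 to 0.964. BMP3 was at 101.4 and 104.2 CPM in diet aortas, against 53.8, 134.8 and 72.5 CPM in controls (0.29 ± 0.36, adjusted p = 0.753). Diet aorta replicate 1 came from a 2-week valve animal, and the duration of replicate 2 is unknown. The aortas thus cannot be set beside the 7-week valves.

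In myocardium 7 of the 10 genes had enough counts to be tested. The other 3, BMP3, GREM1 and NOG, had at most 26, 0 and 11 counts in any library. None of the 7 passed by edgeR or DESeq2 (1 at an unadjusted p under 0.05 by edgeR), where 0.0848% of the 14151 genes tested passed and 8.85% had an unadjusted p under 0.05. SMAD6 had the smallest p, with 22.5, 21.8 and 34.4 CPM in diet myocardium, against 13.3, 22.6 and 16.2 CPM in control myocardium (0.72 ± 0.28, adjusted p = 0.499). ID1 held 64.9, 58.1 and 52.7 CPM on the diet, against 38.5, 33.1 and 70.9 CPM in controls (0.48 ± 0.27, adjusted p = 0.73). BMP6 stood at 0.53 ± 0.29, BMP4 at 0.16 ± 0.29, ID2 at 0.05 ± 0.45, ID3 at -0.01 ± 0.26 and BMP2 at -0.61 ± 0.44, with adjusted p from 0.701 to 0.995. In each of the 7 genes the groups overlapped, while 15.2% of all genes did not.

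The difference between the diet effects of 2 tissues was tested as such in a joint fit of all 27 libraries. For 7-week valve minus myocardium 0 of 10 genes passed by edgeR (2 at an unadjusted p under 0.05), where 0.95% of the 17161 genes tested passed and 16.3% had an unadjusted p under 0.05. Of the 10, BMP3 gave the value farthest from 0, -3.36 ± 1.10 (adjusted p = 0.133). It passed by DESeq2 (-3.28 ± 0.93, adjusted p = 0.0207) and, by edgeR, without control myocardium replicate 1 (-5.25 ± 1.35, adjusted p = 0.0487). BMP3, GREM1 and NOG were too scarce to be tested in myocardium alone, and this fit also holds valve and aorta, where they were higher. BMP3 counts in myocardium were between 1 and 26 per library, so its difference rests on few counts and decides nothing. GREM1 had 0 counts in myocardium, so it has no diet effect there to compare. For the mean of the 3 valve durations minus aorta 0 of 10 passed by edgeR or DESeq2 (2 at an unadjusted p under 0.05 by edgeR), where 0.0175% of all genes passed and 8.25% had an unadjusted p under 0.05. That mean includes the 7-week valves, while the labels give no duration for the aortas. Tissue and duration thus cannot be told apart in this difference. ID1 stood at 1.11 ± 0.40 (adjusted p = 0.506) and SMAD6 at 1.26 ± 0.47 (adjusted p = 0.521). The aorta change was below 0 in both genes, and the 3 valve changes of ID1 were above 0. Those of SMAD6 were 0.48 ± 0.26, 0.32 ± 0.26 and 0.02 ± 0.26 at 2, 4 and 7 weeks. The last was near 0 and changed sign under some alternatives. None of these aorta and valve changes passed by edgeR.

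**Figure D4:**
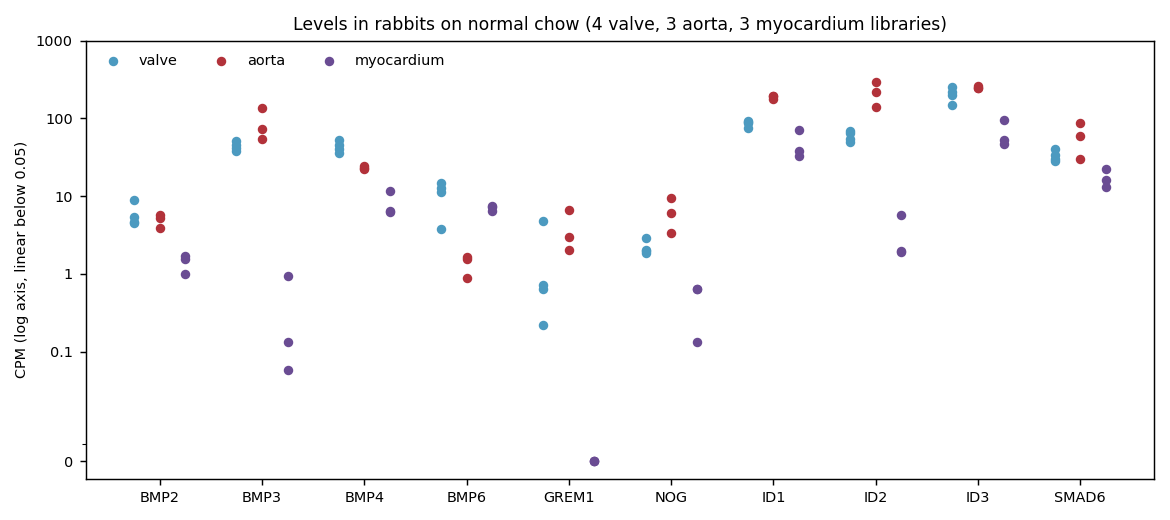
Level (CPM, log axis that is linear below 0.05) of the 10 genes in rabbits on normal chow, in valve (4 libraries), aorta (3) and myocardium (3). ID1, ID2, NOG and BMP3 were highest in aorta, BMP6 was lowest there, and GREM1 had no count in myocardium.

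Between tissues of rabbits on chow 6 to 10 of the 10 genes passed, against 0 to 4 between valve groups. Aorta against myocardium had 10 of 10 genes past the threshold, 9 higher and 1 lower, where 51.8% of all genes passed, 26.4% higher and 25.4% lower. Valve against myocardium had 7 higher and 0 lower, where 44.8% of all genes passed, 23.3% higher and 21.5% lower. In control myocardium GREM1 had 0 counts, BMP3 at most 13 and NOG at most 11 per library. All of them were too scarce to be tested in myocardium alone, and were tested here beside tissues where they were higher. For GREM1 no fitted fold against myocardium is used, only the limits given below. Valve against aorta had 2 higher and 4 lower, where 23.8% of all genes passed, 14% higher and 9.8% lower. The groups did not overlap for 10, 9 and 6 genes in these comparisons, against 56.5%, 45.9% and 32.5% of all genes. Some library numbers are shared by valve and another tissue, and the sequencing run is not given, so tissue and run cannot be told apart.

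Of the 4 targets, ID2 differed the most between tissues. It held 55.2, 69.9, 49.1 and 66.0 CPM in control valves, 219.6, 140.6 and 298.7 CPM in control aortas and 1.93, 1.95 and 5.70 CPM in control myocardium, with no overlap between any of the 3 tissues. On the log2 scale valve differed from aorta by -2.01 ± 0.38 (adjusted p = 0.000825) and from myocardium by 3.89 ± 0.46 (adjusted p = 5.89e-07). ID1 was lower in valve than in aorta (-1.25 ± 0.27, adjusted p = 0.00261), and its difference to myocardium of 0.52 ± 0.28 did not pass (adjusted p = 0.131). ID3 stood 1.31 ± 0.22 higher in valve than in myocardium (adjusted p = 7.3e-05), while its difference between valve and aorta did not pass (-0.44 ± 0.21, adjusted p = 0.143). SMAD6 was lower in valve than in aorta (-0.94 ± 0.32, adjusted p = 0.0358). Its call was lost by limma with the animal as a block (adjusted p = 0.0599). No animal gave both a control valve and a control aorta, so the block pairs nothing here, and the change of method cannot be told apart from it. By edgeR the call was lost without aorta replicate 1 or 3 or control valve replicate 1, 2 or 3. Without aorta replicate 3 the difference was -0.52 ± 0.33 (adjusted p = 0.291).

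Among ligands, BMP6 had its lowest mean in aorta, where BMP3 had its highest. BMP6 held 14.8, 3.78, 11.3 and 12.8 CPM in control valves, against 1.56, 1.68 and 0.892 CPM in control aortas, a difference of 2.83 ± 0.50 (adjusted p = 0.00056), and did not differ from myocardium beyond its spread (0.24 ± 0.43, adjusted p = 0.686). BMP3 held 37.7 to 51.6 CPM in control valves, below all control aortas at 53.8 to 134.8 CPM, although that difference of -1.13 ± 0.52 did not pass (adjusted p = 0.121). In control myocardium BMP3 was at 0.932, 0.134 and 0.0588 CPM, and valve over myocardium gave 6.54 ± 0.81 (adjusted p = 1.27e-06). BMP4 was higher in valve than in aorta (0.78 ± 0.26, adjusted p = 0.0325) and myocardium (2.07 ± 0.28, adjusted p = 3.23e-06). The call against aorta was lost without any 1 of aorta replicates 1, 2 or 3 or control valve replicates 1 or 4. BMP2 did not differ beyond its spread between valve and aorta (0.10 ± 0.29, adjusted p = 0.83) and was higher in valve than in myocardium (1.67 ± 0.31, adjusted p = 0.000173).

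Of the antagonists, NOG was lower in control valve than in control aorta (-1.66 ± 0.46, adjusted p = 0.0118). Without aorta replicate 3, the highest, the difference was -1.21 ± 0.49 and did not pass (adjusted p = 0.0938). NOG was higher in control valve than in control myocardium (1.83 ± 0.53, adjusted p = 0.00794), a call lost without control myocardium replicate 2 (1.36, adjusted p = 0.0601). GREM1 had 0 counts in all 6 myocardium libraries. A count of 0 over the 3 control myocardium libraries together allows up to 3 counts, or 0.0654 CPM, so the control valve level was at least 26.2-fold higher and the control aorta level at least 55.9-fold higher. Control valve replicate 2 held 74 of the 95 control valve counts, and without it the valve limit was 8.06-fold. Without control myocardium replicate 3 the limits were 16.5-fold for valve and 35.1-fold for aorta. Leaving out libraries here was chosen after the values had been seen. These limits cover counting error only. Between valve and aorta GREM1 differed by -1.47 ± 0.72 and did not pass (adjusted p = 0.146), but it did without control valve replicate 2 (-2.94 ± 0.67, adjusted p = 0.00431).

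The wider pathway was taken from 5 lists with 74 genes in the tables, 67 of them tested in valve. The lists hold further ligands of the class, receptors, Smads, antagonists and targets, and SMAD6 and the other 9 genes above are not in them. They were chosen with earlier results of these data known. A called share above that of all genes, here and below, is thus a description and no test of the pathway. At 2 weeks 0 of 67 passed over control by edgeR (17 at an unadjusted p under 0.05), while 12 passed by DESeq2, which called 950 of all genes. By edgeR 7 passed without control replicate 2 and 4 without 2-week replicate 2. Those with the smallest p were SMURF1, a ubiquitin ligase for BMP Smads (0.92 ± 0.17, adjusted p = 0.0653), the co-receptor RGMA (0.65 ± 0.15), FSTL3, a secreted binder of activin (1.13 ± 0.26), and BAMBI, a decoy receptor (1.28 ± 0.29), the last 3 with an adjusted p of 0.0662. At 4 weeks 3 rose and 0 fell (4.48%, against 2% of all genes): CHRDL2, a chordin-like BMP binder (2.66 ± 0.63, adjusted p = 0.0422), the inhibitory SMAD7 (0.58 ± 0.14, adjusted p = 0.0432) and JUNB, an AP-1 factor (1.51 ± 0.30, adjusted p = 0.0201). At 7 weeks 10 rose and 5 fell, or 22.4% of 67, against 7.79% of all genes tested. Leaving out 1 library moved these counts widely, to between 0 and 6 at 4 weeks and between 6 and 20 at 7 weeks. At 4 weeks it was 6 without 4-week replicate 4, 1 without 4-week replicate 1 and 0 without control replicate 2, 3 or 4 or 4-week replicate 2 or 3. At 7 weeks the count fell to 6, 7 or 9 without control replicate 2, 3 or 4 or 7-week replicate 3 or 4. With the smooth muscle covariate 0 of 67 passed at 7 weeks by edgeR (15 at an unadjusted p under 0.05), where 0 of all genes passed (1653 unadjusted).

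Among the ligands 4 of 12 rose and 2 fell at 7 weeks. INHBB and INHBA, which are subunits of activin and inhibin, rose by 2.41 ± 0.44 and 1.22 ± 0.25 over control (adjusted p = 0.00719 and 0.0117). GDF10, a relative of BMP3, fell to 25.5 ± 12.4 CPM at 7 weeks, against 63.4 ± 19.0 CPM in controls (SD, n = 4 each), a log2 fold change of -1.35 ± 0.29 (adjusted p = 0.0137). GDF11 fell by 1.44 ± 0.38 (adjusted p = 0.0315). BMP10, a ligand made by atrial muscle, was at 0.355 to 20.7 CPM at 7 weeks and at 0 to 0.0712 CPM, at most 1 count, in controls. The 7 genes of the atrial muscle list, BMP10 among them, summed to 462 to 4872 CPM at 7 weeks against 49.4 to 63.7 CPM in controls. Of the 7 genes 5 rose, 1 fell (KCNA5, a potassium channel, -1.31 ± 0.33, adjusted p = 0.027) and 1 did not pass. Their part in the BMP10 level was not tested. BMP1, which despite its name is a procollagen protease, rose by 0.70 ± 0.18 (adjusted p = 0.0305).

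Among receptors 2 of 12 rose and 0 fell at 7 weeks. They were ACVRL1 (0.72 ± 0.19, adjusted p = 0.0305) and ENG (1.00 ± 0.26, adjusted p = 0.033), a type I receptor and a co-receptor for BMP9 on endothelium. Endothelial transcripts summed to 672 to 1283 CPM at 7 weeks and 452 to 720 CPM in controls, with 1 of 13 genes higher and 1 lower, and their part was not tested. Of the antagonists and modulators 2 of 17 rose and 2 fell. SOST, sclerostin, an inhibitor of WNT signalling related to the BMP antagonists, fell to 6.31 ± 3.10 CPM at 7 weeks, against 27.6 ± 4.44 CPM in controls (-2.17 ± 0.45, adjusted p = 0.0118). FST, follistatin, fell by 1.69 ± 0.46 (adjusted p = 0.0363). CHRDL2 and TLL1, a tolloid-like protease that cuts chordin, rose by 2.33 ± 0.63 and 1.56 ± 0.44 (adjusted p = 0.0351 and 0.0436). Of 14 other targets JUNB (1.53 ± 0.30, adjusted p = 0.00979) and DLX3, a homeobox factor (2.73 ± 0.64, adjusted p = 0.0193), rose, and HEY2, a transcriptional repressor, fell (-1.39 ± 0.26, adjusted p = 0.00792). JUNB is also on the immediate early list. Of 12 Smads and Smad regulators 0 passed at 7 weeks by edgeR (4 at an unadjusted p under 0.05) and 1 by DESeq2, which called 2197 of all genes.

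At 7 over 2 weeks 10 of the 67 genes rose and 20 fell, or 44.8%, against 26.7% of all genes. The median log2 fold change was -0.30 over the 67 and 0.02 over all genes tested. Among Smads and regulators 6 of 12 fell and 0 rose. They were SMURF1 (-1.15 ± 0.17), SKI (-1.13 ± 0.17) and SKIL (-1.05 ± 0.24), which repress Smad-driven transcription, SMAD9 (-1.58 ± 0.36), SMAD5 (-0.67 ± 0.19) and SMURF2 (-0.66 ± 0.18), with adjusted p from 0.000919 to 0.0171. Among other targets BAMBI fell to 21.9 ± 5.09 CPM at 7 weeks, against 82.0 ± 31.6 CPM at 2 weeks (-1.92 ± 0.30, adjusted p = 0.00107). HEY2, SMAD7, MSX1 and GATA2 also fell, and DLX3 rose. SOST fell by 3.19 ± 0.46, with 2.60 to 10.001 CPM at 7 weeks and 34.05 to 84.7 CPM at 2 weeks, and CRIM1, a membrane protein that binds BMPs, fell by 1.67 ± 0.27 (adjusted p = 0.000835 and 0.00131). CHRDL2 rose by 3.46 ± 0.66, with 32.3 to 106.6 CPM at 7 weeks and 3.32 to 10.4 CPM at 2 weeks (adjusted p = 0.0028). Among receptors BMPR1A, the type I receptor for BMP2 and BMP4, fell (-0.96 ± 0.21, adjusted p = 0.00599), as did RGMA, while ENG, ACVRL1 and HJV rose. Without 1 library in turn the count of calls lay between 23 and 37. With the cardiomyocyte covariate it was 10, in a fit where 679 of all genes passed. With the smooth muscle covariate it was 0 by edgeR (9 at an unadjusted p under 0.05), where 0 of all genes passed (676 unadjusted).

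**Figure D5:**
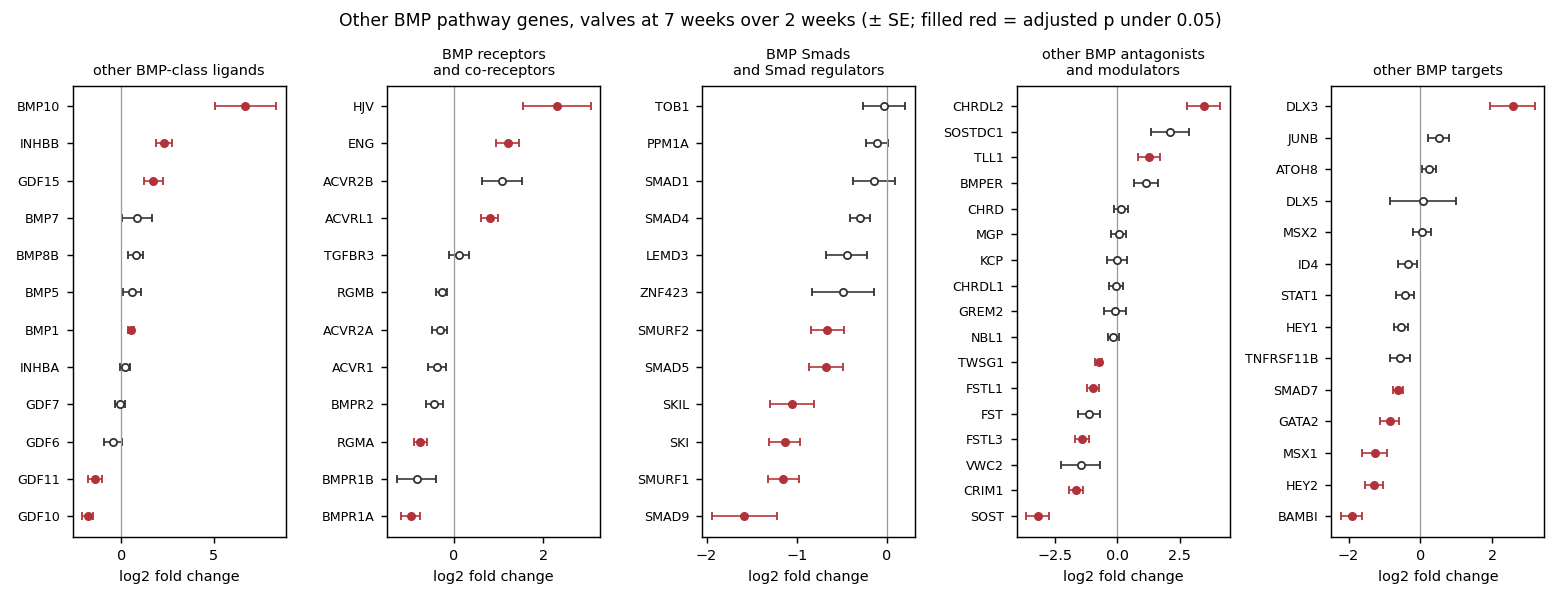
Log2 fold changes (± SE) of the 67 other BMP pathway genes tested in valves at 7 over 2 weeks, in 5 panels by role, filled red where the adjusted p was under 0.05. Among Smads and Smad regulators 6 of 12 fell and none rose, and among antagonists SOST fell and CHRDL2 rose.

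At 4 over 2 weeks 2 of 67 rose and 5 fell (10.4%, against 4.36% of all genes). CHRDL2 (3.79 ± 0.67) and INHBB (1.62 ± 0.43) rose, while BAMBI (-1.65 ± 0.29), FSTL3 (-1.25 ± 0.26), CRIM1 (-1.10 ± 0.27), HEY1 (-0.90 ± 0.20) and SMURF1 (-0.82 ± 0.17) fell, with adjusted p from 0.00886 to 0.0439. Without 1 library in turn the count lay between 3 and 10. It was 3 or 4 without 2-week replicate 1 or 3 or 4-week replicate 1 or 2. At 7 over 4 weeks 0 of 67 passed by edgeR (16 at an unadjusted p under 0.05) and 4 by DESeq2, which called 200 of all genes. Without 7-week replicate 4, 1 passed by edgeR.

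In aorta 0 of the 59 pathway genes tested passed for the diet by edgeR (9 at an unadjusted p under 0.05). By DESeq2 3 passed, where 391 of all genes did, and 2 passed by edgeR without control aorta replicate 2. In myocardium 0 of 55 passed by edgeR (11 at an unadjusted p under 0.05). By DESeq2 3 passed, where 303 of all genes did, and 1 passed by edgeR without control myocardium replicate 1. For the difference of the 7-week valve effect minus the myocardium effect 2 of 68 passed by edgeR, both lower, where 0.95% of all genes passed. SMAD7 stood at -1.23 ± 0.28 (adjusted p = 0.0348), where its own change was -0.06 ± 0.14 in 7-week valves and 1.15 ± 0.20 in myocardium. FSTL3 stood at -1.54 ± 0.38 (adjusted p = 0.0498). Without 1 library in turn between 0 and 4 genes passed here. The count was 0 without control valve replicate 2 or 4, 7-week replicate 3, control myocardium replicate 2 or 3 or diet myocardium replicate 2 or 3, and 1 without control valve replicate 1 or 3, 7-week replicate 2 or 4 or control myocardium replicate 1. It was 4 without diet myocardium replicate 1.

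Between control tissues 7 of 68 pathway genes were higher and 14 lower in valve than in aorta (30.9%, against 23.8% of all genes), and 33 higher and 12 lower in valve than in myocardium (66.2%, against 44.8% of all genes). BAMBI was lower in valve than in aorta (-1.95 ± 0.33), together with SMURF1 (-1.02 ± 0.16), SKI (-1.21 ± 0.19) and SMAD9 (-1.46 ± 0.37), with adjusted p from 0.000266 to 0.00705. CHRDL1, a chordin-like antagonist, was higher in valve than in aorta (2.13 ± 0.34) and than in myocardium (3.76 ± 0.38). BMP5, another ligand, was higher in valve than in aorta (2.87 ± 0.58, adjusted p = 0.00151). ID4, the other member of the ID family, was higher in valve than in myocardium (5.47 ± 0.49, adjusted p = 1.27e-08).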

How the data were processed

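The genome build, annotation and strand setting of the counting were not given in the sources used here. The kit was directional, per the labels' protocols. The authors deposited gene tables of estimated counts (expected counts, not all whole) for 16 valve, 5 aorta and 6 myocardium libraries. Per the submitters' processing notes, the tools included STAR 2.7.8a, RSEM 1.3.3, edgeR 3.42.4, Trim Galore 0.6.6 and FastQC 0.11.9, whose roles are not stated. Expected counts were rounded to whole numbers here, and 1 value of the 10 genes in valve was not whole. A deposited valve table without 346 genes that the authors removed, found in myocardium and valve but not in aorta per the labels' design text, served as an alternative and lacked 0 of the 10 genes.

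The main test was edgeR 4.0.16 (R 4.3.3), a two-sided quasi-likelihood F test with TMM normalization, genes kept at a minimum count of 10 (total 15), and Benjamini-Hochberg adjustment over all genes tested. Valve groups were fitted together, aorta and myocardium each alone, and tissues in 1 fit of 27 libraries. SE is the absolute log2 fold change over the square root of F. CPM uses library totals. Code was tested on simulated counts. Alternatives were DESeq2 1.42.0, its size factors in edgeR, no filter, covariates, replicate blocks and each library left out in turn. Animal blocks used limma 3.58.1. Library totals limit the precision of scarce genes such as GREM1 and NOG.

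The 10 genes and all lists were chosen with earlier results of these data known. Other pathway genes are named from those with the smallest p per list and comparison, at most 5 past the threshold, or 2 where none passed. SMURF2 and GATA2 at 7 over 2 weeks and GDF11 at 7 weeks fall outside this rule and were named after their values were seen. TLL1, BMP7 and TNNT2 were matched through their RefSeq gene identifiers.

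Valve replicates carry separate animal identifiers in the labels. Different animals carry the same replicate number, so numbers do not pair samples. Of 24 pairs of same-numbered libraries 3 had deviations correlated over 0.1 (range -0.433 to 0.163). In all, 6 animals gave libraries of 2 tissues: all diet myocardium came from 7-week valve animals, 2 control myocardium libraries from control valve animals and 1 diet aorta from a 2-week valve animal. The correlation within animals was 0.218. The labels number the 7-week libraries apart from the others, and the sequencing run is not given, so run and duration cannot be told apart.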

Additional observations from a re-analysis of the deposited data

Results flagged for a closer look

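Of 40 groups of 4 valve libraries, 1 for each gene and group, 3 held a library whose gap to its nearest neighbour took up more of the group's range than Dixon's 95% critical value for 4 samples, where chance alone gives about 1 in 20. GREM1 was at 4.74 CPM in control valve replicate 2, a gap of 0.891 of the range. SMAD6 was at 23.8 CPM in 2-week replicate 1, the lowest of its group (0.894), and at 66.2 CPM in 4-week replicate 4, the highest of its group (0.953).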

How the results depend on the processing

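Of 70 counts of called members under an alternative other than a left-out library, 62 stayed within 1.5 times the reported count. Of 676 fold changes 639 kept direction and side of the threshold, 21 changed sign, 10 lost and 6 gained a call; with a library left out these were 1019, 42, 23 and 11 of 1095. The cause was not tested. By DESeq2 the genes called over control were 950, 765 and 2197 at 2, 4 and 7 weeks, 1490 at 4 over 2 and 200 at 7 over 4 weeks, 391 in aorta, 303 in myocardium, and 588 and 68 for the differences to myocardium and aorta. Members called by DESeq2 were 2 at 2 weeks and 1 each at 4 over 2 weeks, 7 over 4 weeks and in the difference to myocardium. With the cardiomyocyte covariate 0 genes passed by edgeR at 2 and 4 weeks (882 and 1969 at an unadjusted p under 0.05), 462 at 4 over 2 and 679 at 7 over 2 weeks, with 2 members in the last. With the smooth muscle covariate, added after seeing the data, 0 passed at 2 weeks (1118 unadjusted), 166 at 4 weeks, 0 at 7 weeks (1653), 0 at 4 over 2 (964), 3 at 7 over 4 and 0 at 7 over 2 weeks (676), and 0 members at 7 weeks and at 7 over 2 weeks (4 and 3 unadjusted). Without a filter on low counts 76 genes passed in myocardium.

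The title numbers do not pair samples. With them as a replicate block, the counts were 0 at 2 weeks (2131 unadjusted), 5 at 4 weeks, 663 at 7 weeks, 264 at 4 over 2, 10 at 7 over 4 weeks and 96 in aorta, and 2 members passed at 7 over 2 weeks, where BMP4 (-0.70, adjusted p = 0.0889) and GREM1 (2.46, adjusted p = 0.0521) were lost. Signs changed under this block for ID2 at 4 weeks (-0.30), SMAD6 at 7 weeks (-0.15), BMP6 at 7 over 2 weeks (0.014), BMP2 in aorta (0.050) and ID3 in myocardium (0.020). With the animal as a block, fitted by limma in place of edgeR, 343 and 1 genes passed for the differences to myocardium and aorta. In that fit BMP6 changed sign between valve and myocardium (-0.096) and in the difference to myocardium (0.17). GREM1 between valve and aorta passed in that limma fit (-1.94, adjusted p = 0.0488). No animal gave both of these control tissues, so block and change of method cannot be told apart.

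Other changes of sign were in values that had not passed. With the cardiomyocyte covariate they were BMP2 (-0.21) and BMP3 (-0.0037) at 2 weeks and BMP6 at 4 weeks (0.40) and 7 over 4 weeks (-0.0098). With the smooth muscle covariate they were BMP2 (-0.34) and BMP3 (-0.39) at 2 weeks, BMP2 at 4 weeks (0.027) and 4 over 2 weeks (0.36), and BMP6 (-1.001), ID2 (0.19) and SMAD6 (-0.043) at 7 weeks. At 7 over 4 weeks they were BMP6 (-0.80) and ID2 (0.096). By DESeq2 it was ID3 in myocardium (0.0032).

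Without 1 library in turn the genes called ranged over 0 to 515 at 2 weeks, 0 to 791 at 4 weeks, 445 to 2261 at 7 weeks, 207 to 1225 at 4 over 2, 4 to 49 at 7 over 4 and 2626 to 5608 at 7 over 2 weeks. They ranged over 2 to 284 in aorta, 1 to 36 in myocardium, 2375 to 4110 between valve and aorta, and 35 to 288 and 0 to 5 for the differences to myocardium and aorta. Members called ranged over 0 to 1 at 2 weeks, 1 to 2 at 7 weeks, 0 to 2 at 4 over 2, 2 to 5 at 7 over 2 weeks, 3 to 6 between valve and aorta and 0 to 1 in the difference to myocardium. Fold changes crossed 0 for BMP2 (-0.075 to 0.27) and GREM1 (-1.29 to 0.55) at 2 weeks, and BMP2 (-0.29 to 0.042), BMP6 (-0.30 to 0.13) and ID2 (-0.39 to 0.29) at 4 weeks. They did so for SMAD6 at 7 weeks (-0.081 to 0.16), SMAD6 (-0.40 to 0.0056) and NOG (-0.56 to 0.22) at 4 over 2, ID1 (-0.15 to 0.16) and ID3 (-0.039 to 0.21) at 7 over 4 and BMP6 (-0.28 to 0.31) at 7 over 2 weeks. They also did for BMP2 in aorta (-0.21 to 0.071), BMP4 (-0.099 to 0.41), ID2 (-0.18 to 0.64) and ID3 (-0.17 to 0.26) in myocardium, BMP2 between valve and aorta (-0.10 to 0.21), and BMP6 (-0.44 to 0.19) and ID1 (-0.076 to 0.42) in the difference to myocardium. Where this left 1 library in a group, its spread was taken to equal that of the others. Few counts limit GREM1 and NOG in valve and myocardium and BMP3 in myocardium.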
